A study of Mus musculus with 6 samples.

Results

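Open chromatin around 8 genes that encode regulators of granulocyte and monocyte fate (Gfi1, Irf8, Irf4, Klf4, Klf2, Egr1, Egr2 and Egr3) was examined in murine leukemia stem cells (LSCs) with and without mycophenolate mofetil (MMF). The members were all accessible regions that overlapped one of these gene bodies or the 60 kb on either side of it in mm10 (GENCODE M21 annotation), 161 of 112852 regions in all. Gfi1 stood for the granulocyte fate with 21 regions, and Irf8, Klf4, Egr1, Egr2 and Egr3 stood for the monocyte fate with 98 regions. Irf4 and Klf2 were described beside them and belonged to neither side of the contrast. The windows did not overlap each other.

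The study asked how blocking purine synthesis changes accessible chromatin in LSCs driven by MLL-AF9, a fusion of the chromatin regulator MLL with AF9. ATAC-seq, in which the Tn5 transposase inserts adapters into open chromatin, was carried out on 3 Control and 3 MMF samples. All 6 samples were leukemic granulocyte-macrophage progenitors (L-GMPs) from blood, labelled as AML LSCs of genotype WT, grown in 20% FBS with mouse IL3 at 10 ng/ml. The MMF samples received MMF, which blocks inosine monophosphate dehydrogenase in guanine nucleotide synthesis, for 24 h by the labels, while the paper's methods and legends differ on dose and time. The study made its murine model by retroviral transfer of MLL-AF9 into stem and progenitor cells, so the progenitors carry a strong fusion oncogene and are not normal. The study's statistics section speaks in general of biologically independent experiments or samples, but neither the labels nor the ATAC-seq methods say whether these samples came from separate mice or cultures, so the p-values measure the spread between samples, which may be technical, and a change in the cell mixture cannot be told apart from a change within each cell.

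GFI1 is a zinc-finger repressor that granulocyte precursors need, and it holds back genes of the monocyte programme. IRF8 drives progenitors towards monocytes and dendritic cells and restrains granulocyte output, KLF4 promotes monocyte differentiation, and EGR1, EGR2 and EGR3 are zinc-finger factors induced by growth-factor signals, of which EGR1 and EGR2 act in macrophage differentiation against GFI1. IRF4 is a close relative of IRF8 used in lymphocytes and dendritic cells, and KLF2 maintains quiescence in lymphocytes and endothelium. Each of these genes is read by distant enhancers as well as its promoter, and 2 of the sequences that follow lie where Irf8 enhancers are known, far upstream and far downstream of the gene.

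The 8 sequences show the centres of the distal regions on which the description turns, each 200 bases of the plus strand of GRCm38 around the strongest summit. Those at Gfi1 (26.9 kb), Irf4, Egr2 and Egr3 rose most, those at Gfi1 (20.1 kb) and Klf2 were listed in MMF samples alone, and the Irf8 pair holds a region that rose and one that showed no detectable difference. Capitals mark matches on either strand to the 8 motifs searched, which were TTGCNNAA for C/EBP, GAGGAAGT for PU.1, TGTGGTT for RUNX, TGANTCA for AP-1, GAAANNGAA for IRF, CCCCACCC for KLF, AAATCAC for GFI1 and GTGGGCG for EGR.
Gfi1, 26.9 kb downstream (chr5:107698988-107699187): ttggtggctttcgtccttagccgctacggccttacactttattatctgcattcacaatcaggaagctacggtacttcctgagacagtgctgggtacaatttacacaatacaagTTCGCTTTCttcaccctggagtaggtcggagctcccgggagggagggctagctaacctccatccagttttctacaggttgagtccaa
Gfi1, 20.1 kb downstream (chr5:107705841-107706040): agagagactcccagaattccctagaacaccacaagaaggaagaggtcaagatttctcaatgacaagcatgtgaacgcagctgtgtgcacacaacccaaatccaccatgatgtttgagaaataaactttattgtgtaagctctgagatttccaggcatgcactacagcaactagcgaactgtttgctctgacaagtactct
Irf8, 50.1 kb upstream (chr8:120686167-120686366): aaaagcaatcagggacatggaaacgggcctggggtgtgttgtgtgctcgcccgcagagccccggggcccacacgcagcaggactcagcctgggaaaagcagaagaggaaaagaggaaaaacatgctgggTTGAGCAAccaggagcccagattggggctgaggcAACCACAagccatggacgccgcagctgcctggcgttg
Irf8, 56.6 kb downstream (chr8:120792826-120793025): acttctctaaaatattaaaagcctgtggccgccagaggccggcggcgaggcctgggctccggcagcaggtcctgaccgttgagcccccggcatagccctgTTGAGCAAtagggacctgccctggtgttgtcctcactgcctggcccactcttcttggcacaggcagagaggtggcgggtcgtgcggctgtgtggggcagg
Irf4, 65.2 kb downstream (chr13:30814326-30814525): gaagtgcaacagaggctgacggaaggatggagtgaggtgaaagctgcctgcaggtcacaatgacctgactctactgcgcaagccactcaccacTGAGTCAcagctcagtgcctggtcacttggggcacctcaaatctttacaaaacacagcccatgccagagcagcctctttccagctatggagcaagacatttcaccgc
Klf2, 1.2 kb upstream (chr8:72317696-72317895): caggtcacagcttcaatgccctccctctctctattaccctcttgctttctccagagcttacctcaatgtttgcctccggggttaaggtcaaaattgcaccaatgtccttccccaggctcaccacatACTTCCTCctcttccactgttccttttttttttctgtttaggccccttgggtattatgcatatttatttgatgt
Egr2, 31.8 kb upstream (chr10:67503609-67503808): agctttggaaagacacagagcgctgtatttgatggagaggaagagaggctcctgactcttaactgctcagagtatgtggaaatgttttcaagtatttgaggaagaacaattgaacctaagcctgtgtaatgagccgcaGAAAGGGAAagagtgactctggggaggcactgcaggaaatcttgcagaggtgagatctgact
Egr3, 52.3 kb upstream (chr14:70024802-70025001): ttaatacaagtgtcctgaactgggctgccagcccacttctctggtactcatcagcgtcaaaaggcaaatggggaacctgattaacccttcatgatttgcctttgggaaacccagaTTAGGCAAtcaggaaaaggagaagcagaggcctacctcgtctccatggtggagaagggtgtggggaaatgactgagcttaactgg

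Both Irf8 sequences held the same C/EBP match, TTGAGCAA, near the summit, and the upstream one also held a RUNX match. The Gfi1 region at 26.9 kb and the Egr2 region each held an IRF match, the Egr3 region a C/EBP match, the Irf4 region an AP-1 match and the Klf2 region a PU.1 match. The Gfi1 region at 20.1 kb held none of the 8. Over the 161 member regions, C/EBP matches were found in 14.3%, AP-1 in 15.5%, RUNX in 11.2%, PU.1 in 8.70%, IRF in 7.45%, KLF in 3.11%, EGR in 2.48% and GFI1 in 0 regions. Over all 112852 regions the shares were 14.9%, 16.1%, 10.8%, 8.26%, 6.58%, 4.20%, 2.95% and 2.30% in the same order, so the shares at the 8 loci lay within about 1 percentage point of those of all regions for the motifs other than KLF and GFI1. The EGR letters stood in 3 of the 21 Gfi1 regions and in 1 region of the 7 other windows together. A match describes letters only, factors of 1 family share them, and none of the 8 letter patterns contains another.

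The Control lists held 58496 to 63911 peaks and the MMF lists 80893 to 86556 peaks on chromosomes 1 to 19, X and Y. The level of a region was its summit signal, the reads over the strongest summit divided by the reads expected over the same width from the whole genome, which puts samples of different depth on 1 scale. The median summit rested on 14 to 19 reads per list, and a list held no peak narrower than 150 bp or below a −log10 p of 3, so a missing peak sets only an upper limit on the signal. Of all regions, 41182 had a peak in every list (shared regions), and their median difference was 0.17 log2 units higher with MMF. This shift depended on the level, with a median of 0.31 over the 10296 shared regions of lowest signal and −0.07 over the 10296 of highest signal. Of the markers fixed for the labelled cells, 10 of 11 progenitor genes had a promoter peak in at least 1 list and 8 had one in all 6, with none seen at Mpo. Of these 8, 1 rose (Ptprc, which encodes CD45, by 0.84 with an adjusted p of 0.0127) and 0 fell, with a median difference of 0.15. Spi1, Kit, Csf2rb and Il3ra were higher short of the threshold (0.48, 0.31, 0.23 and 0.07, adjusted p = 0.0959, 0.470, 0.414 and 0.813). Flt3, Meis1 and Hoxa9 were lower, also short of it (−0.41, −0.40 and −0.36, adjusted p = 0.296, 0.139 and 0.143). When samples were scaled by their median ratios Ptprc still rose and Hoxa9 fell (−0.53, adjusted p = 0.0467). No list held a promoter peak at the 5 T cell or the 4 B cell markers, and the 4 epithelial markers had weak peaks in 1 to 4 of the 6 lists. Of the 5 erythroid markers only Klf1 had a promoter region in every list, and it did not pass the test (−0.12, adjusted p = 0.655).

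MMF lists held more peaks at the 8 loci, at about the ratio of the whole lists. There were 98, 97 and 91 peaks in the windows in Control samples and 127, 129 and 118 in MMF samples, which is 95.3 ± 3.79 against 125 ± 5.86 (SD, n = 3), or 1.31 times as many (p = 0.1 by a two-sided exact permutation test, which is as low as 3 samples against 3 can reach). The whole lists were 1.37 times as long with MMF. The ratio was 1.43 at Irf8, 1.35 at Gfi1, 1.34 at Irf4, 1.31 at Egr3, 1.30 at Egr1, 1.23 at Egr2 and 1.20 at both Klf2 and Klf4. By merged regions, 45 of the 161 were found in MMF lists alone and 12 in Control lists alone, and 67 were shared. Over all 112852 regions the shares were 31.3% in MMF lists alone, 7.02% in Control lists alone and 36.5% shared. At the 8 loci the share in MMF lists alone was 27.95%, that in Control lists alone 7.45% and the shared part 41.6%. The share in Control lists alone was thus close to that of all regions. The share in MMF lists alone was somewhat lower and the shared part somewhat higher, and these differences were not tested. Of the 161, 61 summits lay between genes, 83 in introns and 17 in exons, and 15 regions lay within 1000 bp of the start of a protein-coding gene.

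As deposited, the regions at the 8 loci that passed the test all rose. Among the 67 shared member regions, 14 (20.9%) rose with MMF and 0 fell at an adjusted p under 0.05 (limma over all 41182 shared regions), beside 18.6% of all shared regions that rose and 0.969% that fell. At an unadjusted p under 0.05, 18 were higher and 3 lower. Leaving out 1 sample at a time lowered the 14 to 11 without Control replicate 1, 8 without MMF replicate 3, 7 without Control replicate 3 and 6 without Control replicate 2, MMF replicate 1 or MMF replicate 2, and 0 fell in any of them. The median difference was 0.20 over the members and 0.17 over all shared regions, so the set as a whole moved about as open chromatin in general did. After each sample was scaled by its median ratio over shared regions, which removes 0.18 log2 units, 5 members rose and 2 fell, beside 9.99% and 2.81% of all shared regions. After centring on the sample medians, which removes 0.35 units, 4 members rose and 10 fell, beside 6.90% and 13.9%. All 14 members that rose were distal: the median difference was 0.28 over the 57 shared members away from protein-coding starts and −0.08 over the 10 close to one, and the same medians over all shared regions were 0.32 and −0.09. Gained regions, with a peak in all 3 MMF lists and in no Control list, numbered 11 of 161 beside 6.0% of all regions, and lost regions, the opposite, numbered 0 beside 0.182%.

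**Figure D1:**
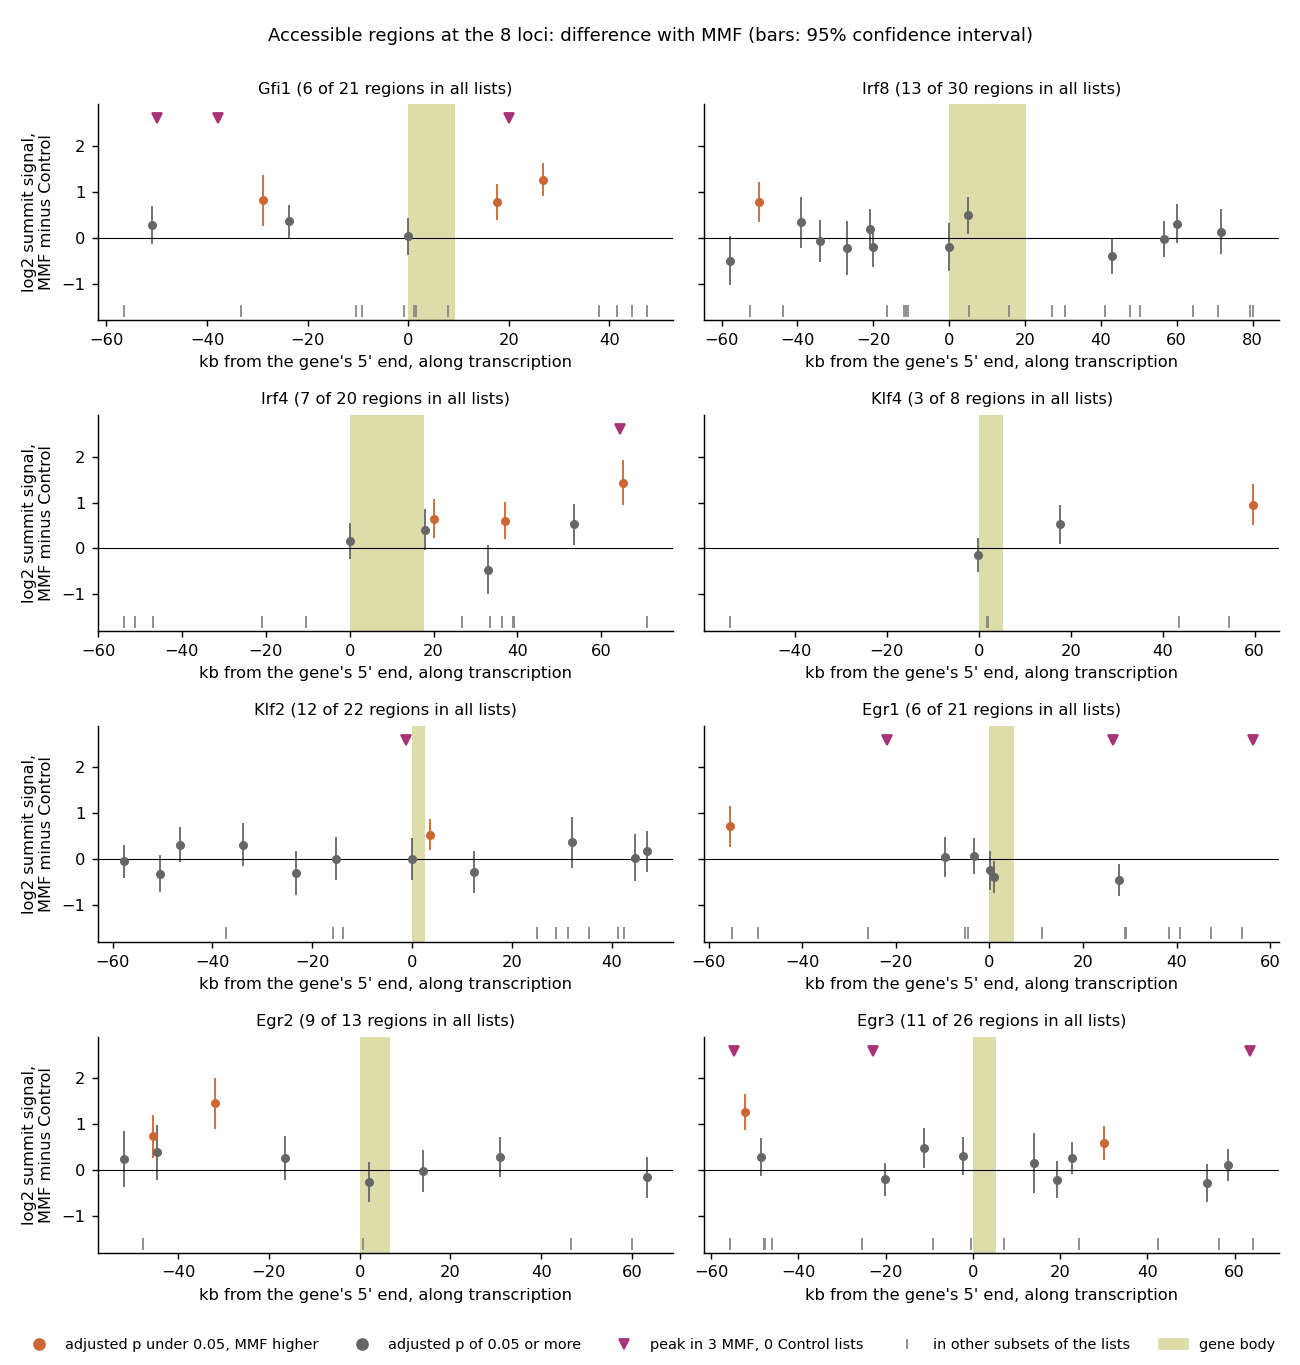
Difference in log2 summit signal (MMF minus Control, vertical axis, bars for the 95% confidence interval) of every shared region against its distance in kb from the gene's 5′ end along transcription, with 1 panel per locus. Triangles at the top are the 11 gained regions, ticks at the bottom are regions in other subsets of the lists, and orange points are the 14 that rose, all of them away from the gene starts.

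At Gfi1 (ENSMUSG00000029275.18, minus strand, chr5:107716657-107726036), MMF samples had higher signal at distal sites and a promoter that did not pass the test. The region 26.9 kb downstream of the gene start, within an exon of the transcript 4930428O21Rik (chr5:107698479-107699461), had a summit signal of 39.8, 36.2 and 41.9 in Control samples and 89.1, 94.9 and 99.0 in MMF samples. Every MMF sample was more than 2 times as high as any Control sample, a difference of 1.27 ± 0.16 log2 units (SE, limma, adjusted p = 0.00158) that passed the test under both scalings above (adjusted p = 0.00480 and 0.0126). Closer to the gene, the region 17.7 kb downstream had a signal of 16.5, 17.4 and 14.5 in Control samples and 30.8, 28.3 and 23.7 in MMF samples (0.77 ± 0.17, adjusted p = 0.0131). Its groups did not overlap, but the call was lost under median-ratio scaling (adjusted p = 0.050) and centring (adjusted p = 0.101). An upstream region in an intron of Evi5, 28.9 kb from the start, had a signal of 20.6, 13 and 12.9 in Control samples and 23.1, 22.7 and 35.5 in MMF samples (0.81 ± 0.25, adjusted p = 0.0435). Here the weakest MMF sample exceeded the strongest Control sample by little, and the region did not pass the test under either scaling.

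The promoter region of Gfi1 (chr5:107725360-107726496) had a signal of 53.5, 55.0 and 56.4 in Control samples and 46.2, 58.1 and 65.0 in MMF samples. The groups overlapped, and the difference of 0.02 ± 0.18 (adjusted p = 0.942, 95% confidence interval −0.37 to 0.42) turned to −0.15 under median-ratio scaling and −0.33 under centring. The strongest distal region, 23.7 kb upstream in an intron of Evi5, had a signal of 103, 94.0 and 111 in Control samples and 141, 129 and 124 in MMF samples (0.36 ± 0.16, adjusted p = 0.157). Evi5, whose gene body covers the upstream flank, encodes a GTPase-activating protein of the cell cycle, so these sites cannot be assigned to Gfi1 from their position. Of the 6 shared regions of the window, 6 were higher with MMF as deposited, 3 of them past the test, 5 were higher after median-ratio scaling and 4 after centring.

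In addition, 3 of the 21 Gfi1 regions were gained. The strongest, 20.1 kb downstream between genes (chr5:107705791-107706093), had a signal of 37.4, 28.3 and 41.4 in the MMF samples, while a list would have held a peak at about 10.1 to 11.3. The other two lay in introns of Evi5. That at 37.8 kb upstream had a signal of 19.8, 17.0 and 10.3, and that at 50.0 kb upstream 20.9, 26.9 and 22.2. These 3 sites therefore flank the gene on both sides, and none lay in its body.

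At Irf8 (ENSMUSG00000041515.10, plus strand, chr8:120736358-120756694), 1 of 13 shared regions rose with MMF, and none of the 30 regions was gained or lost. All 30 summits were annotated as intronic, since the long transcript Gm20388 spans the window. The region that rose lies 50.1 kb upstream (chr8:120685723-120686504) and was the strongest distal region of the window. Its signal was 65.9, 52.1 and 41.9 in Control samples and 95.7, 90.7 and 82.8 in MMF samples, a difference of 0.77 ± 0.20 (adjusted p = 0.0216) that missed the threshold under median-ratio scaling (adjusted p = 0.0749) and centring (adjusted p = 0.139). The groups did not overlap, and the Control samples spread over a wider range than the MMF samples.

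The other 12 shared Irf8 regions did not pass the test as deposited, and 5 of them were higher and 7 lower with MMF. The promoter (chr8:120735885-120736745) had a signal of 45.3, 72.3 and 64.5 in Control samples and 56.1, 62.3 and 39.9 in MMF samples, groups that overlapped (−0.20 ± 0.23, adjusted p = 0.602, 95% confidence interval −0.72 to 0.32). The region 56.6 kb downstream (chr8:120792557-120793331), chosen after its values were seen because an Irf8 enhancer is known there, had a signal of 46.7, 37.6 and 48.4 in Control samples and 42.9, 39.7 and 47.3 in MMF samples (−0.03 ± 0.17, adjusted p = 0.937, 95% confidence interval −0.41 to 0.36). Its MMF values lay inside the Control range. The largest negative difference, 57.7 kb upstream, was −0.50 ± 0.24 (adjusted p = 0.182), with a signal of 24.7, 40.5 and 40.3 in Control samples and 22.0, 31.2 and 20.7 in MMF samples. That region fell under centring (−0.86, adjusted p = 0.0349) and under cyclic loess, a scaling that follows the level (−0.87, adjusted p = 0.0457). A region 42.9 kb downstream was also named after its values were seen. Its signal was 31.6, 41.9 and 40.3 in Control samples and 30.8, 26.9 and 28.1 in MMF samples, without overlap. Its difference was −0.40 ± 0.18 (adjusted p = 0.144), and it fell under centring (−0.75, adjusted p = 0.0240) and loess (−0.74, adjusted p = 0.0313). Falls under centring were not particular to Irf8. Of the 10 members that fell under it, 2 lay at Irf8, 3 at Egr3, 2 at Egr1 and 1 each at Irf4, Klf2 and Egr2. In the other direction, a region 4.9 kb downstream of the start, named after its values were seen, had a signal of 30.2, 30.4 and 38.7 in Control samples and 40.7, 52.4 and 45.8 in MMF samples, also without overlap (0.49 ± 0.18, adjusted p = 0.0886). Of the 13 shared regions, 6 were higher with MMF as deposited and 2 after centring, and 10 regions were found in 1 or 2 MMF lists and no Control list.

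Klf4 (ENSMUSG00000003032.8, minus strand, chr4:55527143-55532466) had the fewest regions, 8, of which 3 were shared. The region 59.7 kb downstream (chr4:55472692-55473131) had a signal of 9.60, 8.68 and 8.06 in Control samples and 15.4, 14.2 and 22.2 in MMF samples (0.95 ± 0.20, adjusted p = 0.0103). It was among the weakest members, and the call was lost under centring and under cyclic loess (adjusted p = 0.0626 and 0.0698). The promoter had a signal of 49.4, 52.1 and 59.7 in Control samples and 46.2, 52.4 and 47.3 in MMF samples, which overlapped (−0.14 ± 0.16, adjusted p = 0.601). The third, 17.6 kb downstream, was 17.8, 24.6 and 25.8 in Control and 30.8, 35.4 and 31.0 in MMF samples (0.53 ± 0.19, adjusted p = 0.0785). No Klf4 region was gained.

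Distal regions rose at all 3 Egr genes, 2 at Egr2, 2 at Egr3 and 1 at Egr1, while the promoters of Egr1 and Egr2, which had high signal, did not pass the test and that of Egr3 could not be tested. At Egr2 (ENSMUSG00000037868.15, plus strand, chr10:67535475-67542188), the region 31.8 kb upstream (chr10:67503448-67504224) had a signal of 13.7, 24.6 and 12.9 in Control samples and 39.6, 49.6 and 45.8 in MMF samples. This was the largest difference among the members, 1.46 ± 0.25 log2 units (adjusted p = 0.00403), and it passed under both scalings (adjusted p = 0.0117 and 0.0224). A region 45.5 kb upstream also rose, from 23.3, 20.2 and 14.5 to 31.9, 35.4 and 28.1 (0.74 ± 0.21, adjusted p = 0.0326), but not under either scaling. The Egr2 promoter region, 2.0 kb past the first start, had a signal of 123, 150 and 176 in Control samples and 119, 150 and 108 in MMF samples, with overlap (−0.25 ± 0.20, adjusted p = 0.417). The strongest distal region, 16.5 kb upstream, was 34.3, 43.4 and 51.6 against 48.4, 63.7 and 42.9 (0.26 ± 0.21, adjusted p = 0.440, turning to −0.09 under centring).

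At Egr3 (ENSMUSG00000033730.4, plus strand, chr14:70077203-70082614), the region 52.3 kb upstream in an intron of Pebp4 (chr14:70024708-70025048) had a signal of 26.1, 20.2 and 24.2 in Control samples and 50.6, 56.7 and 62.1 in MMF samples. The groups were far apart (1.27 ± 0.17, adjusted p = 0.00198), also under both scalings (adjusted p = 0.00644 and 0.0160). A region 30.0 kb downstream in an intron of Bin3 rose from 39.8, 31.8 and 32.2 to 51.7, 49.6 and 54.7 (0.59 ± 0.17, adjusted p = 0.0327), a call lost under both. Gained regions numbered 3 of 26. The strongest of them, 22.8 kb upstream, had a signal of 38.5, 35.4 and 50.3 in the MMF samples, and those 54.7 kb upstream and 63.6 kb downstream had means of 22.3 ± 6.36 and 20.9 ± 4.82 (SD, n = 3). The Egr3 promoter peak was weak and was listed in 2 Control and 2 MMF samples, at 20.2 and 29.0 in Control and 28.6 and 25.1 in MMF samples, so it was not tested. The strongest distal region, 20.1 kb upstream in an intron of Pebp4, was 119, 137 and 118 in Control and 108, 106 and 111 in MMF samples, without overlap but short of the threshold (−0.20 ± 0.16, adjusted p = 0.419). The largest negative difference, 53.7 kb downstream in an intron of Bin3, was −0.28 ± 0.19 (adjusted p = 0.334).

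Egr1 (ENSMUSG00000038418.7, plus strand, chr18:34859823-34864984) differed in direction at its strongest sites. Its promoter region (chr18:34860404-34861366) had its summit 1.0 kb past the start. The signal there was 147, 165 and 171 in Control samples and 128, 119 and 121 in MMF samples. The highest MMF value was below the lowest Control value, but the difference did not pass the test as deposited (−0.39 ± 0.16, adjusted p = 0.116) and did under median-ratio scaling (−0.57, adjusted p = 0.0420). Under cyclic loess it was −0.24 (adjusted p = 0.360). The other shared region at the Egr1 start, with its summit 0.2 kb past it, overlapped between groups. Its signal was 72.7, 86.8 and 61.3 in Control and 59.4, 55.2 and 72.4 in MMF samples (−0.23 ± 0.19, adjusted p = 0.439). A region 27.7 kb downstream behaved like the promoter region, at 96.0, 82.4 and 83.8 in Control and 63.8, 65.2 and 63.6 in MMF samples (−0.44 ± 0.16, adjusted p = 0.0768, and −0.62 with an adjusted p of 0.0322 under median-ratio scaling). These 2 are the members that fell under that scaling, and neither passed under loess, where the second was −0.49 (adjusted p = 0.0777). The strongest distal region, 3.4 kb upstream, was 72.7, 78.1 and 74.2 against 80.3, 93.5 and 65.0 (0.07 ± 0.18, adjusted p = 0.824, turning to −0.11 under median-ratio scaling). In the other direction, a region 55.4 kb upstream in an exon of Kdm3b, a histone demethylase gene, rose from 23.3, 20.2 and 27.4 to 39.6, 46.7 and 31.0 (0.72 ± 0.20, adjusted p = 0.0330), a call lost under both scalings. Gained regions lay 22.0 kb upstream and 26.4 and 56.4 kb downstream, with mean signals of 12.7 ± 1.28, 31.7 ± 1.09 and 14.7 ± 1.65 (SD, n = 3). The second of these stood beside the 27.7-kb region that was lower in MMF samples.

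Irf4 and Klf2 belong to the same families and were measured in the same way. At Irf4 (ENSMUSG00000021356.10, plus strand, chr13:30749226-30766976), the region 65.2 kb downstream in an exon of Exoc2 (chr13:30814066-30814760) had a signal of 11, 14.5 and 19.3 in Control samples and 38.5, 36.8 and 42.9 in MMF samples. The lowest MMF value was above the highest Control value (1.44 ± 0.22, adjusted p = 0.00261), and the region passed under both scalings (adjusted p = 0.00774 and 0.0172). Next to it, 64.4 kb from the start, lay the only gained region of the window, with a signal of 19.8, 14.2 and 23.7. Regions 20.2 and 37.1 kb downstream rose by 0.65 ± 0.19 and 0.60 ± 0.18 (adjusted p = 0.0401 and 0.0419), and neither passed under the scalings. The Irf4 promoter had a signal of 50.8, 39.0 and 46.8 in Control and 46.2, 48.2 and 57.7 in MMF samples (0.16 ± 0.18, adjusted p = 0.592, turning to −0.02 under median-ratio scaling). The largest negative difference, 32.9 kb downstream, was −0.46 ± 0.24 (adjusted p = 0.216).

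At Klf2 (ENSMUSG00000055148.7, plus strand, chr8:72319033-72321656), 1 of 12 shared regions rose and 1 of 22 regions was gained, 1 on each side of a promoter that did not pass the test, and 4 of the 12 were lower with MMF. The promoter signal was 111, 139 and 83.8 in Control and 102, 109 and 118 in MMF samples (0.01 ± 0.20, adjusted p = 0.981, turning to −0.17 under median-ratio scaling). The region 3.6 kb downstream of the start, just past the gene end, had a signal of 94.7, 85.3 and 87.1 in Control samples and 134, 126 and 127 in MMF samples (0.54 ± 0.16, adjusted p = 0.0361). Its groups were tight and apart, but neither scaling kept the call (adjusted p = 0.141 and 0.393). On the other side, 1.2 kb upstream (chr8:72317657-72317950), lay the strongest gained region of all 8 loci, with a signal of 55.0, 62.3 and 60.6 in the MMF samples where about 24.7 to 27.4 would have given a listed peak. The strongest distal region, 50.4 kb upstream, was 187, 162 and 161 in Control and 112, 157 and 143 in MMF samples (−0.32 ± 0.18, adjusted p = 0.266), without overlap.

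The 14 regions that rose differed in how firmly the call stood. Those at Gfi1 (26.9 kb), Irf4 (65.2 kb), Klf4 (59.7 kb), Egr2 (31.8 kb) and Egr3 (52.3 kb) kept an adjusted p under 0.05 with each of the 6 samples left out in turn, the highest values being 0.00936, 0.0129, 0.0332, 0.0207 and 0.0110. The Gfi1 region at 17.7 kb lost it without MMF replicate 1 (adjusted p = 0.0538). The Irf8 region at 50.1 kb lost it without Control replicate 2 or 3 or MMF replicate 1 or 2 (up to 0.0738), and the Egr1 region at 55.4 kb without Control replicate 1 or 2 or MMF replicate 1 or 2 (up to 0.118). The Gfi1 region at 28.9 kb, the Irf4 region at 20.2 kb, the Egr2 region at 45.5 kb and the Egr3 region at 30.0 kb kept it only without Control replicate 1 (up to 0.142, 0.120, 0.109 and 0.0972 otherwise), and the Irf4 region at 37.1 kb only without MMF replicate 1 (up to 0.133). The Klf2 region at 3.6 kb lost it without any of the 6 (0.0612 to 0.106). Each of the 14 stayed higher with MMF in all 6 of these fits.

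**Figure D2:**
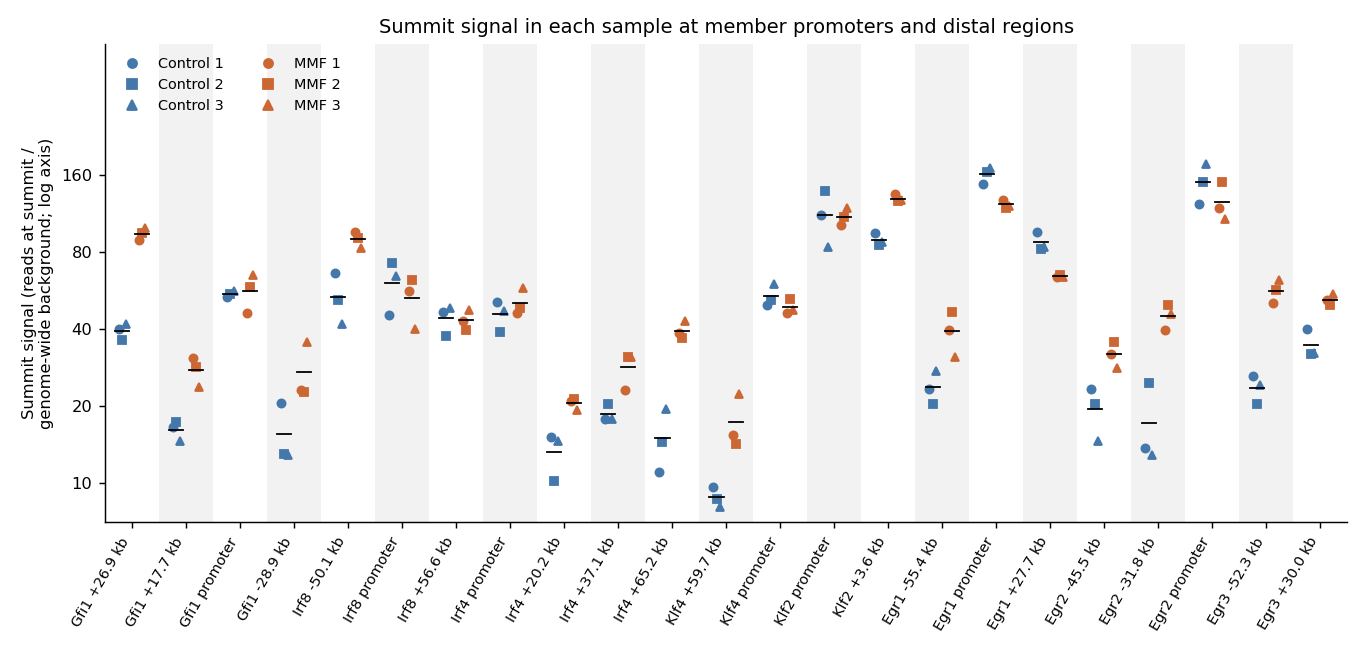
Summit signal (log axis, reads at the summit over the genome-wide background) in each sample at the shared promoter regions, the 14 regions that rose and 2 regions named in the text that did not, with circles, squares and triangles for replicates 1, 2 and 3 and black lines for group means (n = 3). Control and MMF points mix at the promoters of Gfi1, Irf8, Irf4, Klf4, Klf2 and Egr2. They lie apart with MMF lower at the Egr1 promoter region 1.0 kb past the start, and with MMF higher at the distal regions that rose.

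The contrast of the granulocyte locus with the monocyte loci was the mean log2 summit signal over the 6 shared Gfi1 regions minus that over the 42 shared regions of Irf8, Klf4, Egr1, Egr2 and Egr3. It was 0.14, −0.07 and −0.05 in Control samples and 0.40, 0.33 and 0.51 in MMF samples. The MMF samples all lay above the Control samples, with means of 0.41 ± 0.09 and 0.01 ± 0.12 (SD, n = 3), a difference of 0.41 that equal scaling of a whole sample cannot alter. No test is given, since the loci were chosen with results known. Gfi1 itself went from 5.21 ± 0.08 to 5.79 ± 0.04 and the monocyte loci from 5.20 ± 0.05 to 5.38 ± 0.09.

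The monocyte loci were not alike among themselves. Their mean differences before scaling were 0.45 at Klf4, 0.33 at Egr2, 0.25 at Egr3, 0.05 at Irf8 and −0.04 at Egr1, compared with 0.58 at Gfi1, 0.47 at Irf4 and 0.07 at Klf2. Klf4, with 3 shared regions, was thus closer to Gfi1 than to Irf8, and Irf4 was close to Gfi1 although it belongs to no side. The contrast also leaned on 1 region: without the Gfi1 region at 26.9 kb it was 0.27. By calls, 3 of 6 shared Gfi1 regions and 7 of 42 monocyte regions rose, beside 18.6% of all shared regions. Under median-ratio scaling 1 of 6 and 3 of 42 rose and 0 and 2 fell, and under centring 1 of 6 and 2 of 42 rose and 0 and 8 fell.

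**Figure D3:**
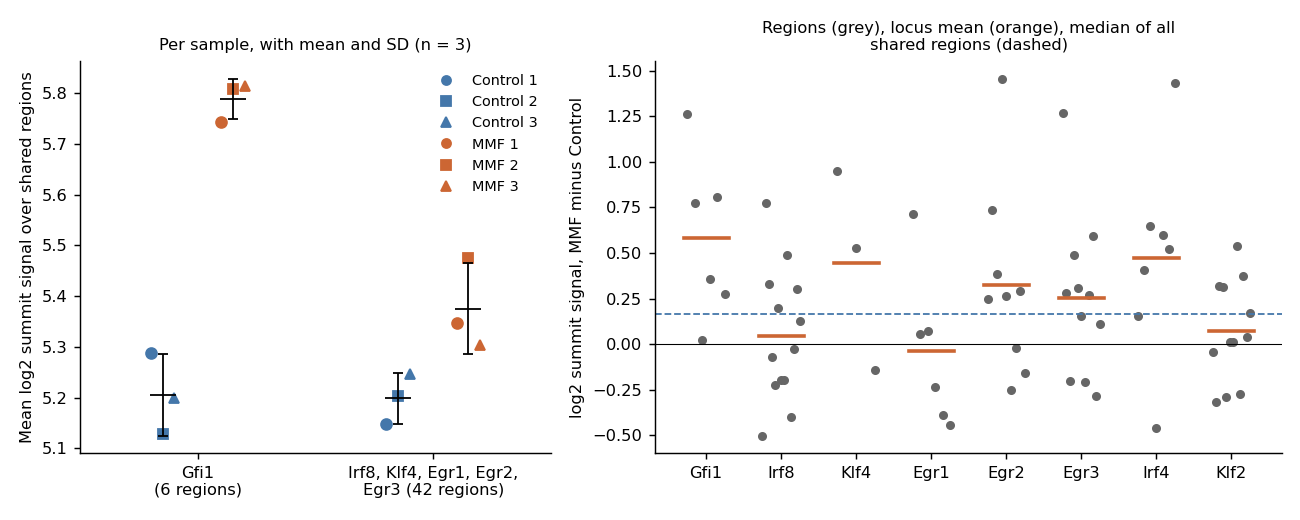
Left, mean log2 summit signal of each sample over the shared regions of the Gfi1 window and of the 5 monocyte windows, with mean and SD (n = 3). Right, log2 difference (MMF minus Control) of each shared region by locus, with the locus mean as an orange bar and the median of all shared regions as a dashed line at 0.17. The 6 Gfi1 regions lie at or above 0, and those of Irf8 and Egr1 lie on both sides.

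The median difference of open chromatin at large moved with the level of a region, with a wide spread at every level, so the members were also read against other regions of like signal. The median over all shared regions in 20 groups of equal size by level was 0.19 in the weakest group, at a mean log2 signal of 3.60, highest at 0.38 for a signal of 4.20, and from there went down to −0.16 at 7.47. Of the 67 shared members, 16 lay above the interquartile range of all shared regions at their level, 31 within it and 20 below it. At Gfi1, 4 of 6 lay above and 0 below, and at Irf8 1 of 13 lay above and 6 below, the promoter among the latter. At Egr1, 1 of 6 lay above and 3 below, among them the promoter (−0.39) and the region at 27.7 kb (−0.44). Egr3 had 4 of 11 above and 2 below, and Egr2 1 of 9 above and 2 below. The Gfi1 region at 23.7 kb (0.36) and the Klf2 region at 3.6 kb (0.54) lay above the range at a level where the median difference of all shared regions was below 0. This position rests on the same values as the test and is a description. After cyclic loess, which removes a shift that follows the level, the Gfi1 minus monocyte difference was 0.45. Under it 5 members rose and 2 fell, beside 2592 and 1401 of all 41182 shared regions. The Klf2 region at 3.6 kb was among the 5 (adjusted p = 0.0398), and the Klf4 region at 59.7 kb was not (adjusted p = 0.0698). Those that fell were the Irf8 regions at 57.7 kb upstream and 42.9 kb downstream and not the Egr1 pair.

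**Figure D4:**
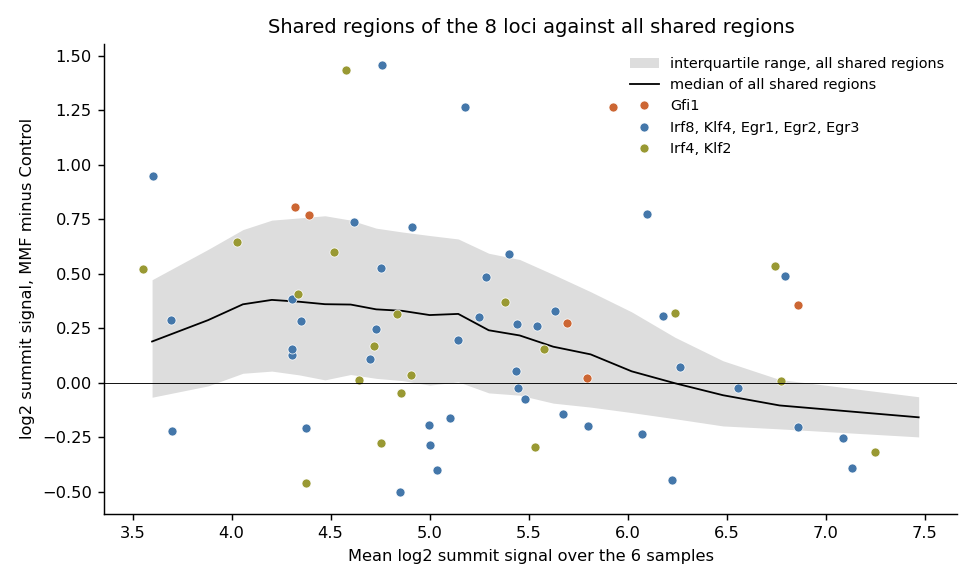
Log2 difference (MMF minus Control) of the 67 shared member regions against their mean log2 summit signal over the 6 samples, coloured by locus group, over the median (line) and interquartile range (grey) of all shared regions in 20 groups of equal size by level. The line is at 0.19 on the left, reaches 0.38 and falls to −0.16 on the right, the 4 highest points are the Gfi1, Irf4, Egr2 and Egr3 regions that rose most, and the Egr1 promoter lies at −0.39.

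Promoters of genes used by the mature cells were then read from the same shared regions. Of 20 granulocyte genes, 8 had a promoter region in all lists, and 4 of these rose and 0 fell, with a median difference of 0.64. Of those that did not pass the test, Ctsg, Mmp8 and Padi4 were higher (0.52, 0.40 and 0.23, adjusted p = 0.0839, 0.179 and 0.537). Cebpa was lower (−0.31, adjusted p = 0.229), and −0.49 under median-ratio scaling (adjusted p = 0.0756). No list held a promoter peak at Prtn3, Mpo, Mmp9 or Itgb2l. Camp, which encodes an antimicrobial peptide of neutrophil granules, had a signal of 24.7, 11.6 and 27.4 in Control and 61.6, 62.3 and 56.2 in MMF samples (1.59 ± 0.29, adjusted p = 0.00546). S100a8 and S100a9, the subunits of calprotectin, rose by 1.32 and 1.08 (adjusted p = 0.00353 and 0.00700), and Csf3r, the receptor for the granulocyte growth factor G-CSF, by 0.76 (adjusted p = 0.0152), a call that missed the threshold under median-ratio scaling (adjusted p = 0.0521) while the other three kept it. Ngp, a neutrophil granule gene, was listed in 2 Control samples at 15.1 and 16.1 and in 3 MMF samples at 48.4, 58.1 and 51.7. Ltf, which encodes the granule protein lactoferrin, was listed in the 3 MMF samples alone, at 9.90, 12.7 and 10.3. Ly6g was listed in 2 Control samples at 10.1 and 9.67 and in 2 MMF samples at 9.90 and 13.3. Cebpe, Elane, Lcn2, Cxcr2 and Fcnb were also missing from some lists and were not tested.

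Of 20 monocyte genes, 13 had a promoter region in all lists, and 1 rose and 0 fell, with a median of 0.16. The one that rose was Lyz2, the lysozyme of myeloid cells in general, with a signal of 23.3, 20.2 and 25.8 in Control and 40.7, 43.9 and 38.4 in MMF samples (0.83 ± 0.17, adjusted p = 0.00828). Csf1r, the receptor for the macrophage growth factor, was listed in 2 Control samples at 12.3 and 13 and in 3 MMF samples at 36.3, 34.0 and 31.0, and its missing peak kept it out of the test. Ms4a6c, like Ltf, was listed in the 3 MMF samples alone, at 11, 17 and 16.3. Of the 26 family relatives, the other Irf and Klf genes among them, 21 promoters were shared, and 0 rose or fell with a median of −0.05. Promoters in general had a median of −0.09, with 3.25% that rose and 1.19% that fell. These lists were chosen with results of these data known, and the difference between them was not tested.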

How the data were processed

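ATAC-seq was measured in 3 Control and 3 MMF samples. The authors trimmed reads with Trim Galore, aligned them to mm10 (Bowtie2) and ran MACS2 on every sample separately, per the labels. The deposited lists give fold enrichment as a ratio (summit reads to local background), p and q as −log10 values, and a score, which was not used. MACS2 options and versions are not given in the sources used here.

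Peaks on chromosomes 1 to 19, X and Y were kept, and those overlapping by at least 1 bp were merged. Whole summit reads and backgrounds were solved from fold, (reads + 1) / (background + 1), and the Poisson p, for 100% of peaks, and the summit signal was reads over the lowest background of the list. This is the strength of called peaks, not a count over fixed intervals, so no count model was used. Counting error alone is large at the median of 14 to 19 summit reads per list.

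The log2 summit signal of all 41182 shared regions was tested in R 4.3.3 by limma 3.58.1 (lmFit and eBayes, no block, Benjamini-Hochberg, adjusted p under 0.05), and single values also by exact permutation, which gave 0.1 wherever the groups did not overlap. The limma test was also run on simulated data with normal noise and shifts of either direction at few regions. Those data lacked the mostly upward, level-dependent shift seen here, so they do not check the calls under it. Motifs were matched in 200 bp around the strongest summit, read from GRCm38 with pysam 0.24.0, and a promoter was the 1000 bp before and after a GENCODE M21 start. Python 3.11.15 and pandas 2.3.3 were used.

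Named were the promoter, every gained, lost or called region, the strongest distal region and the largest rise and fall of each window, and up to 4 called promoters per gene list. Members, lists and this rule were chosen with earlier results of these data known. Some further regions and promoters were named outside this rule, after their values were seen. Alternatives covered scaling, ranks, fold enrichment, a variance trend, the replicate block, stricter q, equal list length, summit distance, 30-kb windows and each sample left out. Median-ratio scaling, cyclic loess and the contrast without promoters, without 1 Gfi1 region or after loess were added after seeing the data. Reads were not used.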

Additional observations from a re-analysis of the deposited data

How the results depend on the processing

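The count of 14 member regions higher with MMF was 8 with the replicate block, 4 after centring on the sample medians, 5 after median-ratio scaling, 5 after cyclic loess, 8 with log2 fold enrichment, 5 with ranks within whole lists, 0 with ranks among shared regions (limma, 5 higher and 10 lower at an unadjusted p under 0.05) and 7 in 30-kb windows. The count of 0 lower was 3 with a variance trend, 10 after centring, 2 after median-ratio scaling, 2 after cyclic loess, 1 with fold enrichment and 1 with ranks among shared regions. The 11 gained regions were 5 at equal list length and 5 in 30-kb windows, and the 0 lost were 2 at equal list length and 1 with summits within 150 bp. With each sample left out, the counts ranged from 6 to 11 higher, 0 lower, 12 to 17 gained (17 without MMF replicate 3, where fewer lists must hold a peak) and 0 to 2 lost. The Gfi1 minus monocyte difference of 0.41 was 0.61 in 30-kb windows, 0.27 without the Gfi1 region at 26.9 kb, and 0.35 to 0.47 with each sample left out.

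The block was not used in the main test because the study's methods name no pairing of the samples. Deviations from the group means of samples with the same number correlated at −0.0013, 0.0039 and −0.0026 over shared regions. These values gave no sign of pairing by number, but the origin of the samples is not stated.

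Of the 67 shared members, 45 (67.2%) were higher with MMF as deposited, beside 64.6% of all shared regions. After median-ratio scaling 34 were higher, and after centring 22. Among those named, signs turned as follows. The Gfi1 promoter was −0.33 after centring, −0.15 after median-ratio scaling, −0.13 after loess and −0.31 with ranks among shared regions, and −0.085 to 0.161 with samples left out. The Irf4 promoter was −0.20, −0.021 and −0.059 after centring, median-ratio scaling and loess. The Klf2 promoter was −0.34, −0.17, −0.052, −0.11 and −0.49 after centring, median-ratio scaling, with fold enrichment and with ranks in the whole list and among shared regions. The Egr1 region at 3.4 kb was −0.28, −0.11 and −0.31 after centring, median-ratio scaling and ranks among shared regions, the Egr2 region at 16.5 kb −0.093 after centring, and the Irf8 region at 56.6 kb 0.068 with fold enrichment and 0.024 with ranks within lists. With samples left out the Klf2 promoter ran from −0.18 to 0.184, turning without Control replicate 3 and MMF replicate 3, the Egr1 region from −0.053 to 0.209, turning without MMF replicate 2, and the Irf8 region at 56.6 kb from −0.138 to 0.044, turning without Control replicate 1, Control replicate 3 and MMF replicate 2. Beyond scaling by construction, the cause was not tested. Peak lists hold no signal below their threshold, so weak sites cannot be compared at this depth.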

Other observations

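The peak caller sets each summit against a local background, which for 99.96% or more of the shared regions above the genome-wide level corresponds to a whole number of reads in the 10 kb around the summit. This neighbourhood level, in multiples of the genome-wide background, gives a second view of the loci that the summit signal leaves out, although the fold enrichment divides by it and reads of the peaks themselves count towards it. Its median over the 6 shared Gfi1 regions was 2.68, 2.94 and 2.79 in Control samples and 4.20, 4.35 and 4.12 in MMF samples. Over the 7 Irf4 regions it was 1.22 ± 0.09 in Control and 1.87 ± 0.04 in MMF samples, over the 9 Egr2 regions 1.47 ± 0.11 and 1.86 ± 0.06, and over the 11 Egr3 regions 2.63 ± 0.01 and 3.29 ± 0.12 (SD, n = 3). At Irf8 it was 3.55 ± 0.31 in Control and 3.35 ± 0.31 in MMF samples, at Egr1 8.22 ± 0.33 and 7.89 ± 0.22, at Klf2 2.87 ± 0.08 and 2.88 ± 0.07, and at Klf4, near the genome-wide level, 1.00 in every Control sample and 1.11 ± 0.06 in MMF samples. Over all shared regions it was 1.99 ± 0.01 and 2.30 ± 0.02. Gfi1, Klf4, Irf4, Egr2 and Egr3 thus stood above their Control samples in all 3 MMF samples, and at Irf8, Egr1 and Klf2 the groups overlapped. No test was run on these medians.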
